A study of Mus musculus with 168 samples.

Results

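The cytosolic ribosomal protein genes were described across 6 neuron populations of control and spinal muscular atrophy (SMA) mice at postnatal days 2, 5 and 10. Members were taken by symbol: every entry of the deposited RPKM table that begins with Rpl or Rps and a digit, plus Rpsa, Rplp0, Rplp1 and Rplp2, without pseudogene entries ending in -ps and without the Rps6k kinases. The rule found 91 of the 39410 entries, and no measured value was used to choose them. They comprised 31 proteins of the small (40S) subunit, 43 of the large (60S) subunit, 3 proteins of the large subunit's stalk, 13 paralogs or additional copies and Rps19bp1, which the symbol rule brings in although it encodes a binding partner of Rps19 and no ribosomal protein. Entries of pseudogenes are mentioned only where their levels bear on those of the members.

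Each mature cytosolic ribosome holds 1 copy of nearly every ribosomal protein, and the genes are among the most heavily transcribed in most cells. Their mRNAs begin with a C followed by a run of pyrimidines, the terminal oligopyrimidine (TOP) motif, through which mTOR signalling controls their translation. Unassembled ribosomal proteins, foremost Rpl5 and Rpl11 bound to the 5S rRNA, can inhibit Mdm2, the ubiquitin ligase of p53, and Rps27l, a paralog of Rps27, is itself a transcriptional target of p53. SMA is caused by too little of the SMN protein, which assembles spliceosomal small nuclear ribonucleoproteins, and motor neurons differ in how strongly the disease affects them.

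The SMA mice were delta7 mice of genotype Smn-/-/SMN2+/+/SMN∆7+/+, and controls were littermates of genotype Smn+/+/SMN2+/+/SMN∆7+/+, so the human SMN2 gene and the SMN∆7 transgene were present in both groups. Days 2, 5 and 10 stand for the presymptomatic, early symptomatic and late symptomatic stages. From frozen, stained sections a laser cut out motor neurons of the oculomotor and trochlear nuclei (here called ocular), the facial, vagus and hypoglossal nuclei and the lumbar spinal cord, and neurons of the red nucleus, a midbrain group that is not made of motor neurons. On days 5 and 10 some ocular libraries are labelled with only the oculomotor or only the trochlear nucleus. A tube held roughly 150 cells of 1 mouse, and polyA RNA was sequenced after Smart-seq2 amplification. The 168 libraries gave 160 samples of a mouse and a population, from 15 control and 19 SMA mice, in 36 groups of 3 to 7 mice.

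Depth, recovered from the spacing of low RPKM values, ran from 0.342 to 16.3 M reads with a median of 5.89 M, at which 1 RPKM is worth 2.95 reads in a gene of 500 bases. The shallowest samples were red nucleus control mouse 252 at 0.342 M and facial SMA mouse 206 at 1.44 M. Smn1, the deleted gene, measured 4.32 to 63.3 RPKM in controls and 0 to 4.24 RPKM in SMA samples, 70 of 88 of which were at 0. In controls, 5 motor neuron markers summed to medians of 861.8 to 1708 RPKM in the 5 motor populations against 58.4 RPKM in the red nucleus. Astrocyte markers were present in every population, with summed medians of 581.6 to 1674 RPKM in controls. SMA mouse 31, of day 5, stood apart by a high summed ribosomal protein level in its 5 brain samples. The libraries of these samples carry the lowest library numbers of the series and include its deepest, at 16.3 M reads. The lumbar sample of this mouse, which was not high, has a higher number and a depth near the median. The part of depth and library number in this was not tested.

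Rps27 and Rps27l are shown first because the paralog passed a test between SMA and control samples described below, while its canonical partner, listed at low levels, passed none. Their coding sequences have the same length and are 76.1% identical, with 61 mismatches, printed in capitals. Rps27 lies at chr3:90212522-90213651 on the minus strand and Rps27l at chr9:66946086-66949516 on the plus strand (GRCm38, GENCODE M21).
Rps27: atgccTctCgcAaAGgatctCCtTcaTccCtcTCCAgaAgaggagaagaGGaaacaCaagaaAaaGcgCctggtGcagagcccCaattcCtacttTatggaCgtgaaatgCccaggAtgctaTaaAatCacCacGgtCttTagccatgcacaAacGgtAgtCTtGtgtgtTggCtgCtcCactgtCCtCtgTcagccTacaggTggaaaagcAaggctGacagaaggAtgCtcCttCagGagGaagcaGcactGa
Rps27l: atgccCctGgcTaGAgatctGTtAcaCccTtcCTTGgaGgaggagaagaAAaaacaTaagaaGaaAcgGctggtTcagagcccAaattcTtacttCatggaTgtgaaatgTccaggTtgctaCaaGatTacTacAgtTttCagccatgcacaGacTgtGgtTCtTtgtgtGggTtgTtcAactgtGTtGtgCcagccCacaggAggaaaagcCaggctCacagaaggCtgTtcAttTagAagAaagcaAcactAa
Mismatches are spread along the whole frame, and 77.6% of the 50-base windows of Rps27l transcripts occurred in no other gene's transcript, against 1.35% for Rps27.

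Transcription start windows are shown because the TOP motif sits at the first transcribed base. They are those of the 3 genes that passed between SMA and control samples, of Rps27 as the partner of Rps27l, and of Rpl15 and Rpl13. The last are among the members that fell with age in lumbar samples of both genotypes. Rpl32, Rpl39, Rpl41, Rps23 and Rps26 fell there in both as well. The windows of Rpl39, Rpl41, Rps23 and Rps26, not printed, hold no TOP motif at the annotated start. Each window holds 10 bases before and 20 from the annotated RefSeq start (GRCm38.p6), read on the gene's strand, and capitals mark a C at the first base with the pyrimidines that follow it.
Rpl15, chr14:18270967-18270996, minus strand: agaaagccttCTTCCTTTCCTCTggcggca
Rpl13, chr8:123102340-123102369, plus strand: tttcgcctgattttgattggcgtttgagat
Rps27, chr3:90213629-90213658, minus strand: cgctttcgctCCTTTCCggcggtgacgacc
Rps27l, chr9:66946076-66946105, plus strand: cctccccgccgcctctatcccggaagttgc
Rps21, chr2:180257369-180257398, plus strand: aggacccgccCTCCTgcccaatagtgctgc
Rps28, chr17:33824543-33824572, minus strand: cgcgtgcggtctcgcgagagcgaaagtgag
Rpl15 has a run of 13 bases, Rps27 one of 7 and Rps21 one of 5, while Rpl13, Rps27l and Rps28 have none at the annotated base. Rps21 and Rps27l each have another annotated start, not printed, without the motif. With the motif taken as a C at the first base followed by C or T only, for at least 4 further bases on the transcript strand, 13 of the 65 members with a RefSeq window (20.0%) held it, against 813 of 27025 genes (3.01%). When the run could begin within 10 bases of the annotated start, it was found in 39 members (60%) and in 34.4% of all genes. A match describes letters in this window only.

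Listed levels of the canonical genes differed widely, although the ribosome uses their products in nearly equal numbers. Over the 160 samples, the median gene mean was 18.6 RPKM in the small subunit, with a lowest of 1.57 RPKM, 16.2 RPKM in the large subunit (0.461 to 287.4) and 83.6 RPKM in the stalk (49.1 to 308.3). The paralogs and additional copies had a median of 0.501 RPKM (0 to 356.5). RPKM is scaled to gene length, so levels of different genes are set side by side on that scale.

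Among the highest means were those of Rps14 at 403.5 RPKM, the paralog Rps27l at 356.5 RPKM, the stalk protein Rplp1 at 308.3 RPKM and Rps26 at 291.9 RPKM. At the other end, 5 entries had almost nothing: Rpl23a is listed as 2 entries, of which one averaged 5.14 RPKM and the other was at 0 in all 160 samples, and Rps12l1, Rps12l2, Rps3a2 and Rpl10l were too low to be tested in any population. Among canonical genes the lowest were Rpl29 at 0.461 RPKM, with 44 samples at 0, Rps6 at 1.57, Rpl10 at 2.92, Rps12 at 3.23 and Rpl17 at 3.44 RPKM. Rps6 is the 40S protein phosphorylated by S6 kinases downstream of mTOR. Of the members with roles outside the ribosome, Rpl5 averaged 5.06 RPKM, Rpl11 9.52 RPKM, Rpsa (also the laminin receptor precursor) 6.06 RPKM and Rps27a (made as a fusion with ubiquitin) 9.89 RPKM. Rps19, mutated in Diamond-Blackfan anaemia, averaged 113.2 RPKM, Rpl13a 129.4 RPKM, Rplp0 49.1 RPKM and Rplp2 83.6 RPKM.

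The listed level moved with how much of a gene's sequence is its own. Ribosomal protein genes have many processed pseudogenes of nearly the same sequence, and how reads with several matches were counted is not given in the sources used here. Among the 77 canonical genes, the 21 with under 25% of 50-base windows unique had a median mean of 5.26 RPKM (1.57 to 16.3), the 22 with 25 to 50% had 17.9 RPKM (0.461 to 308.3) and the 34 with at least 50% had 78.2 RPKM, with a lowest of 4.67 RPKM. Across these genes, which are not independent replicates, Spearman's rho between the unique share and the mean was 0.688, and Pearson's r with the log2 mean was 0.679. Rps2 had 28.7% unique windows at 3.54 RPKM, Rps6 15.4% and Rpl10 7.87%. Some pseudogene entries outside the rule were high, with means of 447.2 RPKM for Rpl38-ps2, 137.7 RPKM for Rps13-ps2 and 100.3 RPKM for Rpl31-ps8. The part of read assignment in these levels was not tested, and levels of the members with few unique windows are uncertain. The spread between mice also differed: the median SD of log2(RPKM + 1) within groups was 0.679 under 25%, 0.534 from 25 to 50% and 0.342 at 50% or more.

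**Figure D1:**
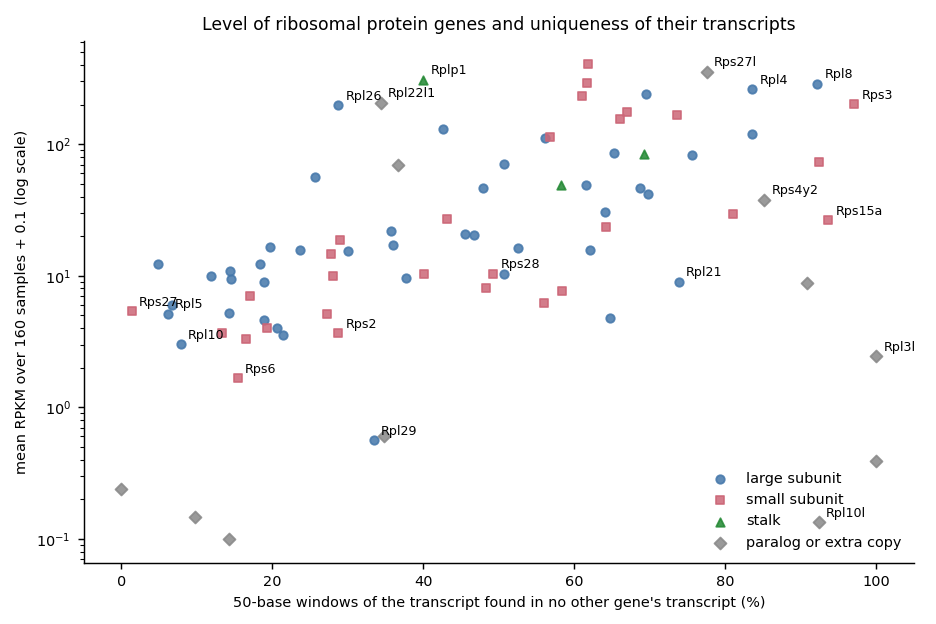
Mean level of members over 160 samples (vertical axis, RPKM + 0.1, log scale) against the percentage of its 50-base windows found in no other gene's transcript (horizontal axis), with a marker for each role. Canonical genes with under 25% unique windows lie between 1.57 and 16.3 RPKM, while Rps27l, with 77.6%, is at 356.5 RPKM.

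Paralog pairs differed in which copy was listed higher. Rps27l ran from 125.9 to 784 RPKM over the samples, while Rps27 ran from 0 to 14.1 RPKM with a mean of 5.26 and 4 samples at 0. Rpl22l1, at 207.0 RPKM, exceeded Rpl22 at 83.2 RPKM, and Rpl36al, at 69.0 RPKM, exceeded Rpl36a at 9.33 RPKM. Canonical copies were the higher ones for Rpl39 at 118.8 RPKM against Rpl39l at 0.289 RPKM (148 samples at 0), Rpl10 at 2.92 against Rpl10l at 0.0336 (154 samples at 0) and Rpl7 at 20.2 against Rpl7l1 at 8.70. Rpl3l, the paralog known from striated muscle, averaged 2.35 RPKM with 48 samples at 0, against 10.7 RPKM for Rpl3. Rps4y2, at 37.7 RPKM, exceeded the X-linked Rps4x at 14.5 RPKM. In GENCODE M21 the Rps4y2 entry corresponds to Rps4l, a transcribed processed pseudogene at chr6:148354656-148355598 on the plus strand. Because the pairs differ in unique sequence, the order within a pair shares the uncertainty given above.

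Summed over the 91 entries, the members made up 0.631 to 1.34% of all RPKM in a sample, with a median of 0.860%. The sum holds Rps19bp1, at a mean of 70.1 RPKM, and Rps4y2, and leaves out the pseudogene entries given above. It is thus the share of these entries and not of all ribosomal protein mRNA. In lumbar control samples the share was 1.03% on day 2 (0.957 to 1.11%), 0.752% on day 5 (0.732 to 0.792%) and 0.833% on day 10 (0.813 to 0.858%), and the 3 days did not overlap. Facial, vagus and hypoglossal controls had means of 1.0, 1.08 and 0.968% on day 2, 0.835, 0.865 and 0.787% on day 5, and 0.845, 0.893 and 0.842% on day 10. Red nucleus controls had 0.930, 0.75 and 0.736% on days 2, 5 and 10, and ocular controls 0.776, 0.683 and 0.705%. Thus the day-2 mean was the highest in controls of all 6 populations. Library numbers differed between days 2 and 10 too, as given below with the changes by age. Over all days, ocular controls were lowest at 0.721 ± 0.0587% (SD, n = 12 samples) and vagus controls highest at 0.933 ± 0.118% (n = 11). Facial controls were at 0.903 ± 0.128% (n = 13), hypoglossal at 0.865 ± 0.10% (n = 12), lumbar at 0.864 ± 0.130% (n = 13) and red nucleus at 0.810 ± 0.110% (n = 11), neighbours that differ by less than their SDs. No test was made of this sum over the members.

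SMA means of the summed share on days 2, 5 and 10 were 0.914, 0.743 and 0.790% in ocular, 1.03, 0.976 and 0.905% in facial, and 1.05, 1.09 and 0.932% in vagus samples. They were 1.0, 0.890 and 0.851% in hypoglossal, 0.991, 0.777 and 0.900% in lumbar and 0.991, 0.815 and 0.818% in red nucleus samples. On day 10 the ocular control samples (0.684 to 0.729%) and SMA samples (0.739 to 0.846%) did not overlap. The motor neuron marker sum of these samples did not overlap either, at 967.4 to 1084 RPKM in controls and 491.6 to 953.9 RPKM in SMA, and its part in the ocular values of day 10 was not tested. SMA mouse 31 of day 5 had 1.34% in the vagus, 1.23% in the facial, 1.13% in the hypoglossal, 1.09% in the red nucleus and 0.940% in the ocular sample, but 0.805% in its lumbar sample.

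**Figure D2:**
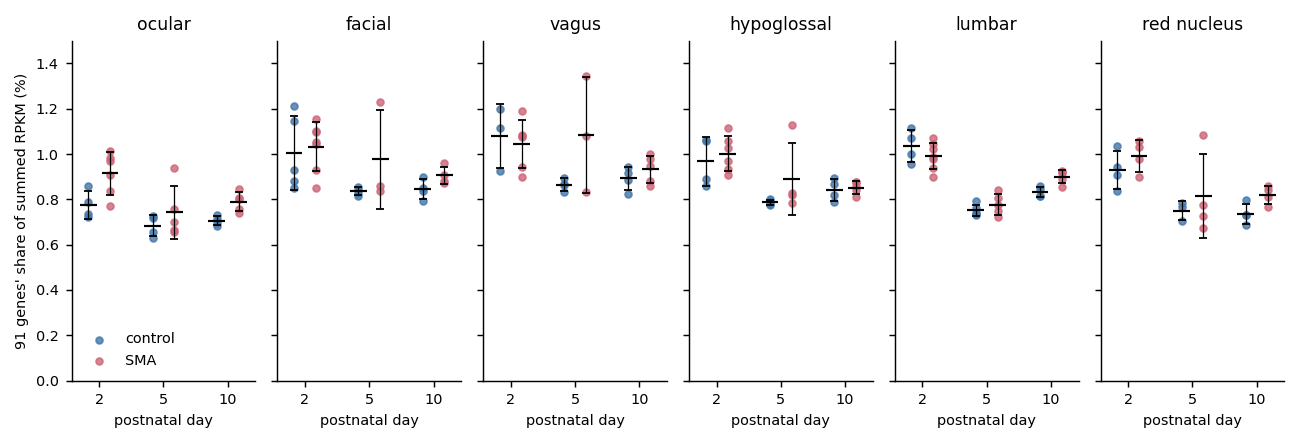
Share of summed RPKM taken by the 91 entries (vertical axis, percent) by postnatal day (horizontal axis) in each population, with a point per mouse sample and bars for the mean ± SD of control and SMA groups. Lumbar control samples lie at 0.957 to 1.11% on day 2 and at 0.732 to 0.792% on day 5, and the ocular panel is the lowest in controls.

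The comparison of SMA with control mice asks whether ribosomal protein mRNAs differ when SMN is lacking, in each population and at each stage. A gene is said to have passed the test when limma's moderated test on log2(RPKM + 1) gave a two-sided p under 0.05 after Benjamini-Hochberg adjustment over all genes tested in that population. Of 503 member tests per day, none passed on day 2 or day 5. On day 2, 35 higher and 10 lower had an unadjusted p under 0.05, and the lowest adjusted p was 0.191. On day 5 these counts were 15 and 9, and the lowest adjusted p was 0.355. Over all genes and populations, 0.0283% of tests were higher and 0.0131% lower in SMA on day 2, and 0.0202% and 0.00708% on day 5, so few genes of any kind passed. On day 10, 4 member tests were higher and none lower, against 0.281% of all tests higher and 0.0364% lower (unadjusted: 46 higher and 8 lower). Those 4 were Rps28 in facial and lumbar, and Rps27l and Rps21 in lumbar motor neurons. In bulk samples such as these, fewer cells of a type and less RNA per cell cannot be told apart.

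Rps28, a small 40S protein, rose in facial and lumbar motor neurons of day-10 SMA mice. In facial samples, controls measured 5.74, 7.00, 4.74 and 5.03 RPKM (mean 5.63 ± 1.01, SD, n = 4) and SMA samples 39.8, 20.9, 30.0 and 32.2 RPKM (mean 30.7 ± 7.81, n = 4). The lowest SMA sample was well above the highest control. The log2 difference was 2.24 (SE 0.42, limma adjusted p = 0.00537), where 0.562% of all genes tested in facial samples were higher. Lumbar controls measured 4.85, 3.75, 4.91 and 2.4 RPKM (mean 3.98 ± 1.18, n = 4) and SMA samples 7.89, 8.44, 21.5, 38.2 and 15.2 RPKM (mean 18.2 ± 12.5, n = 5). These groups also did not overlap, with a log2 difference of 1.76 (SE 0.43, limma adjusted p = 0.0424) against 0.708% of all genes higher. SMA samples differed among themselves far more than controls. Their values of 21.5, 38.2 and 15.2 RPKM came from the shallowest SMA samples of this group. Control mouse 253, at 4.91 RPKM, was shallower than the SMA sample at 15.2 RPKM. Facial SMA samples were all shallower than those of control mice 247, 252 and 254. They were deeper than that of control mouse 253, at 4.74 RPKM. The part of depth in these values was not tested.

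The other populations did not pass for Rps28, and their values differed in overlap. Hypoglossal controls of day 10 measured 5.56, 5.43, 4.99 and 7.35 RPKM and SMA samples 13.2, 13.3, 18.6, 16.6 and 15.9 RPKM, without overlap (log2 difference 1.27, limma adjusted p = 0.326). Ocular controls measured 7.53, 4.86, 0.907 and 6.25 RPKM and SMA samples 17.7, 13.2, 8.57, 8.30 and 15.5 RPKM, again without overlap (1.36, limma adjusted p = 0.776). In the red nucleus, controls at 4.64, 0, 9.86 and 6.77 RPKM overlapped SMA samples at 9.13, 20.5, 17.9 and 16.0 RPKM (1.80, limma adjusted p = 0.635), and the 0 came from the shallowest sample. Vagus samples overlapped fully, at 14.6, 6.75, 21.6 and 7.13 RPKM in controls and 14.0, 9.88, 14.5, 13.7 and 5.41 RPKM in SMA (-0.04). On earlier days the genotypes overlapped in lumbar and facial samples. Lumbar controls ran from 6.16 to 15.6 RPKM on day 2 and 4.41 to 9.60 RPKM on day 5, against 4.50 to 18.4 and 2.24 to 16.5 RPKM in SMA. Facial controls ran from 3.53 to 14.5 and 7.33 to 22.2 RPKM on those days, and SMA samples from 3.73 to 25.9 and 8.82 to 10.8 RPKM. In vagus samples of day 2, controls at 4.19 to 4.98 RPKM lay below SMA samples at 5.30 to 17.3 RPKM, a difference of 0.94 that did not pass (limma adjusted p = 0.744).

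Rps28 (chr17:33819027-33824562, minus strand) has exons that overlap Kank3 on the opposite strand, and 49.3% of its windows are unique. Strand handling is not given in the sources used here, so reads of the overlap cannot be told apart. Kank3, named after its values were seen, measured 10.7, 4.91, 6.08 and 9.35 RPKM in facial controls of day 10 and 23.9, 17.6, 15.2 and 40.04 RPKM in SMA samples, without overlap (log2 difference 1.48, limma adjusted p = 0.589). In lumbar samples its difference had the other sign: 3.78, 10.5, 10.6 and 5.58 RPKM in controls and 6.32, 0.345, 18.8, 1.35 and 0.577 RPKM in SMA (-1.11, limma adjusted p = 0.729).

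Rps27l rose in lumbar motor neurons of day-10 SMA mice. Controls measured 362, 302, 278 and 348 RPKM (mean 322.6 ± 39.3, SD, n = 4) and SMA samples 516, 439, 538, 587 and 476 RPKM (mean 511.2 ± 56.8, n = 5). Every SMA sample was above every control, with a log2 difference of 0.66 (SE 0.16, limma adjusted p = 0.0450). Differences of like size did not pass elsewhere. Facial controls at 531, 387, 305 and 282 RPKM lay below SMA samples at 536, 536, 669 and 591 RPKM (0.67, limma adjusted p = 0.314), and ocular controls at 446, 284, 297 and 284 RPKM overlapped SMA samples at 571, 539, 608, 311 and 583 RPKM (0.66, limma adjusted p = 0.273). The log2 difference was 0.46 in hypoglossal (limma adjusted p = 0.566), 0.02 in vagus and 0.20 in red nucleus samples. In ocular samples of day 5, controls at 192.2 to 258 RPKM also lay below SMA samples at 272 to 389 RPKM (0.49, limma adjusted p = 0.628). Rps27, the canonical partner, differed by -0.13 in lumbar samples of day 10. In facial samples its controls at 3.04, 2.51, 2.84 and 3.38 RPKM lay below SMA samples at 8.08, 4.04, 5.47 and 9.52 RPKM, and the difference of 0.93 did not pass (limma adjusted p = 0.818).

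Other p53-related genes of a list are given beside Rps27l. The list was drawn up with earlier results of these data known, so its shares are a description. Cdkn1a, the cell-cycle inhibitor and p53 target, rose on day 10 by 5.59 in ocular, 5.71 in facial, 4.04 in hypoglossal and 4.85 in lumbar samples on the log2 scale, while 0.18 in vagus and 0.95 in red nucleus samples did not pass. Mdm2 rose by 1.60 in ocular (limma adjusted p = 0.00763) and 0.98 in lumbar samples (limma adjusted p = 0.0468), and its 1.3 in facial samples did not pass (adjusted p = 0.208). Of 48 tests of this list per day, 1 was higher on day 2 (2.08%), 3 on day 5 (6.25%) and 7 on day 10 (14.6%), with none lower. The shares of all tests higher were 0.0283, 0.0202 and 0.281%. The ribosomal proteins best known for binding Mdm2 did not pass in any of the 18 comparisons: Rpl5 ranged from -1.36 to 0.91 in log2 difference, Rpl11 from -0.57 to 1.07, Rpl23 from -0.72 to 0.28 and Rpl26 from -0.47 to 0.30. Their lowest limma adjusted p-values were 0.378, 0.583, 0.553 and 0.646.

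Rps21, a 40S protein with a 5-base TOP run at the start printed above, rose in lumbar samples by 0.46 (SE 0.10, limma adjusted p = 0.0239). Controls measured 173.03, 164.06, 181.4 and 152.97 RPKM (mean 167.9 ± 12.2, SD, n = 4) and SMA samples 272.6, 218.07, 189.8, 264.96 and 221.8 RPKM (mean 233.4 ± 34.7, n = 5), without overlap. Ocular samples of day 10 also did not overlap, at 142.1, 141.3, 166.95 and 130.2 RPKM in controls and 201.7, 200.4, 167.96, 181.2 and 213.6 RPKM in SMA, but the difference of 0.41 did not pass (limma adjusted p = 0.753). Rps21 lies at chr2:180257377-180258445 on the plus strand.

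**Figure D3:**
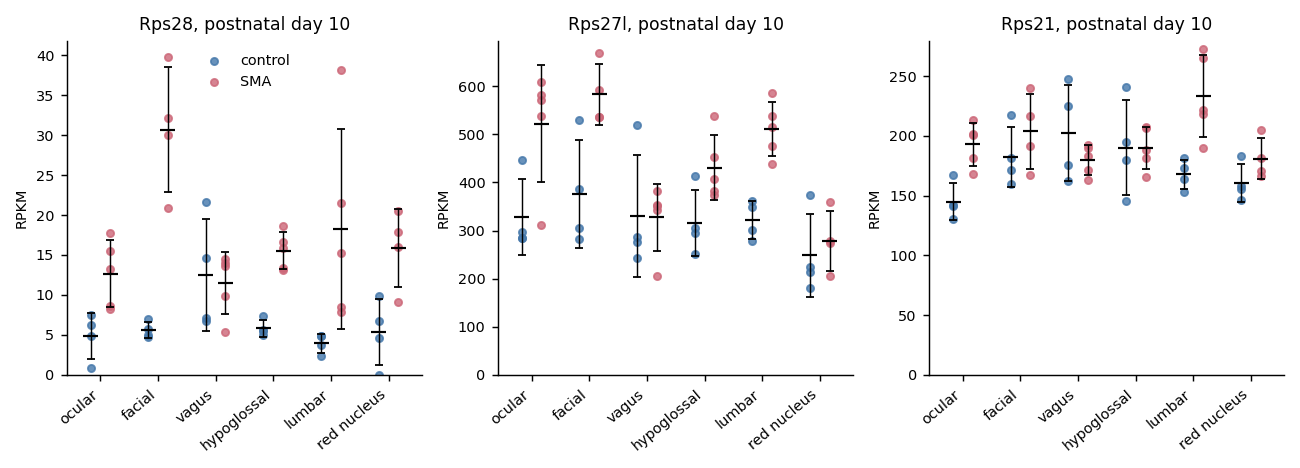
Levels of Rps28, Rps27l and Rps21 (vertical axis, RPKM) on day 10 in the 6 populations (horizontal axis), with a point per mouse and bars for the mean ± SD of control and SMA groups. In lumbar samples all 3 genes show SMA samples above every control, and vagus samples of Rps28 overlap.

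The 3 lumbar calls depended on the mice and the scaling used, while the differences themselves stayed within 0.40 to 0.53 for Rps21, 0.59 to 0.72 for Rps27l and 1.44 to 1.98 for Rps28 when any mouse was left out. Leaving out control mouse 247, 252 or 254 or SMA mouse 250 left 0 of the 3 past the threshold, and leaving out control mouse 253 or SMA mouse 196, 249 or 258 left 1. Day-2 control mouse 244 and day-2 SMA mouse 209 enter through the shared estimate of the spread, and leaving out either also left 1. In all, the call was lost without 19 of the 34 mice for Rps27l, 11 for Rps28 and 5 for Rps21. With quantile and upper-quartile scaling the differences were 1.65 and 1.73 for Rps28 (limma adjusted p = 0.0629 and 0.0585), 0.40 and 0.43 for Rps21 (0.0923 and 0.108) and 0.58 and 0.63 for Rps27l (0.0923 and 0.178). Rps28 in facial samples passed in all 7 other settings and without any single mouse (limma adjusted p 0.00110 to 0.0255). Astrocyte marker sums overlapped between genotypes on day 10, with medians of 1416 RPKM in control and 1524 RPKM in SMA facial samples and 1096 and 1271 RPKM in lumbar samples.

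Apart from single genes, the members' log2 differences leaned to one side in some groups. In ocular samples of day 2, 70 of 83 members were higher in SMA, with a median of 0.333 against 0.088 for all genes tested. In red nucleus samples of day 10, 67 of 83 were higher (median 0.340 against 0.134, and 0.560 against 0.327 with upper-quartile scaling), and in vagus samples of day 5, 65 of 84 (0.331 against 0.014), a group that holds mouse 31. In lumbar samples of day 10, 57 of 84 were higher, with a median of 0.152 against 0.053, while facial samples of day 10 had a median of -0.066 against 0.011. Since no member passed in the first 3 of these groups, these are descriptions. In ocular samples of day 2 the lowest adjusted p-values were those of Rpl32, at 0.52 (SE 0.16), and Rps27, at 1.17 (SE 0.35), both 0.191 by limma. Rps27 there measured 1.89, 0, 3.70 and 2.07 RPKM in controls and 1.72, 6.63, 5.57, 3.84, 5.60 and 7.12 RPKM in SMA samples, which overlapped.

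The remaining members chosen for their known roles did not pass in any SMA comparison. Over the 18 comparisons Rps6 ranged from -0.73 to 0.55 in log2 difference, Rpsa from -0.48 to 0.82 and Rps27a from -0.81 to 0.71. Rplp0 ranged from -0.25 to 0.50, Rplp1 from -0.29 to 0.74 and Rplp2 from -0.78 to 0.98. Rpl13a ranged from -0.61 to 0.56. Rps19 was positive in 17 of 18 comparisons, from -0.02 to 0.64, with a lowest limma adjusted p of 0.149. Lists of related genes had few calls or none. Other TOP mRNAs (translation factors and the like) had none on any day, and mTOR and TOP control genes had none. Ribosome biogenesis factors had 1 higher of 342 tests on day 10 (0.292%), near the 0.281% of all tests.

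Tests of whether the SMA difference itself varied found no member. For the change of the difference from day 2 to day 10, no member passed in any population (unadjusted: 32 higher and 11 lower), against 0.0394% higher and 0.00202% lower among all tests. The lowest limma adjusted p was 0.206, of Rps14 in lumbar samples, a difference of 0.57 (SE 0.15). For the day-10 difference of a population against the mean of the others, none passed either (unadjusted: 23 higher and 23 lower), against 0.0786% and 0.0629% of all tests, and the lowest adjusted p was 0.0812 by limma, of Rps7 in red nucleus samples at 1.59 (SE 0.41). So the lumbar and facial calls of day 10 are not shown to differ from the other populations. In the red nucleus, 64 of 87 members were on the higher side of this contrast, with a median of 0.241 against 0.048 for all genes.

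Between day 2 and day 10 of control mice, ribosomal protein mRNAs that changed fell with 1 exception, and lumbar motor neurons had the most. There, 17 of 84 members tested (20.2%) were lower on day 10 and none higher, against 7.25% of all genes lower. In the red nucleus 7 of 83 were lower against 5.42%, in hypoglossal samples 3 of 84 against 2.68%, in facial samples 2 of 85 against 2.76%, in vagus samples 0 of 84 against 0.437% and in ocular samples 0 of 83 against 3.64%. The facial and hypoglossal shares were thus near the background. In all, 29 tests (5.77%) were lower, of 21 different members, against 3.67% of all tests, and 1 was higher, against 3.38% (unadjusted: 99 lower and 10 higher). Median log2 changes of the members were -0.448 in lumbar (all genes -0.104; 72 of 84 members negative), -0.319 in hypoglossal (-0.025), -0.273 in red nucleus (-0.006), -0.238 in vagus (-0.067), -0.236 in facial (-0.042) and 0.018 in ocular samples (0.056). Upper-quartile scaling moved the ocular medians to 0.277 for the members and 0.255 for all genes. Leaving out control mouse 20 left 9 lumbar members lower and mouse 244 left 10, and in the red nucleus the count went from 7 to 10 without mouse 254.

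By role, the lumbar calls covered 9 of 31 small subunit proteins, 5 of 43 large subunit proteins, the stalk protein Rplp0, the paralog entry Rps4y2 and Rps19bp1. Members with at least 50% unique windows gave 13 of 39 calls and the others 4 of 45, so the calls moved with the unique share, whose part was not tested. Small subunit members that fell included Rps23 by 1.33 on the log2 scale, Rps19 by 0.84, Rps7 by 0.69, Rps3 by 0.67, Rps3a1 by 0.62, Rps26 by 0.61, Rps24 by 0.51 and Rps14 by 0.45. In the large subunit Rpl13, Rpl15, Rpl39, Rpl41 and Rpl32 fell, the last 3 by 0.53, 0.48 and 0.46. Rps4y2 fell by 1.01. The call of Rps24 was lost when any 1 of 24 mice was left out.

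Rpl15, a 60S protein with the 13-base TOP run printed above, fell in the most populations. Lumbar controls measured 44.6, 40.9, 38.7 and 38.2 RPKM on day 2, 36.5, 38.1, 43.9, 34.4 and 43.7 RPKM on day 5, and 23.0, 26.6, 21.1 and 25.8 RPKM on day 10. Day 10 was below every sample of the earlier days, which overlapped each other. Its log2 change was -0.73 in lumbar (SE 0.15, limma adjusted p = 0.00108), -0.85 in facial (SE 0.23, 0.0229), -0.76 in hypoglossal (SE 0.20, 0.0244) and -1.06 in red nucleus samples (SE 0.29, 0.0202). Rpl15 (chr14:18267823-18271391, minus strand) overlaps an exon of Nkiras1 on the opposite strand.

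Rps19bp1 fell in 3 populations, by 1.06 in hypoglossal, 0.66 in lumbar and 1.05 in red nucleus samples on the log2 scale, and the lumbar call was lost when any 1 of 23 mice was left out. Several members fell in 2 populations. Rplp0, the stalk base, fell by 0.82 in hypoglossal (limma adjusted p = 0.0496) and 0.61 in lumbar samples (0.00648), and the hypoglossal call was lost when any 1 of 22 mice was left out. Rpl13, a 60S protein, fell by 0.75 in lumbar (0.00953) and 1.02 in red nucleus samples, and only 19.7% of its windows are unique. Rpl10a, named after its values were seen, fell by 2.30 in the red nucleus (SE 0.48, limma adjusted p = 0.00277). Only 11.9% of its windows are unique, and it overlaps an exon of another gene on the opposite strand. Its pseudogene entry Rpl10a-ps1 averaged 56.8 RPKM. Rpl10a itself averaged 3.31 RPKM in red nucleus controls of day 10, a group that holds the shallowest sample.

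The single rise was Rpl3l in the red nucleus, at 2.86 (SE 0.85, limma adjusted p = 0.0315). It was listed at 0 in all 4 control samples of day 2 and at 15.5, 0, 8.71 and 16.5 RPKM on day 10, where the 0 came from the shallowest sample. The rise did not pass in SMA mice, and it was lost when any of control mice 14, 26, 28, 244, 247, 253 and 254 was left out.

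In SMA mice the same contrast gave 25 lower tests (4.97%), of 15 different members, against 3.63% of all tests, and 2 higher, against 3.77% (unadjusted: 83 lower and 15 higher). Lumbar samples had 11 lower of 84 (13.1%), near the 9.8% of all genes. The counts were 5 in ocular against 3.03%, 4 in facial against 3.21%, 2 in vagus against 1.77%, 2 in hypoglossal against 1.88% and 1 in red nucleus samples against 2.08%. The ocular count was 1 without SMA mouse 258 and 3 without mouse 206, 249 or 250. Rpl15 fell in 4 populations, by 0.87 in ocular (SE 0.17, limma adjusted p = 0.00114), 1.06 in facial (SE 0.21, 0.00193), 0.78 in vagus (SE 0.19, 0.0194) and 0.88 in lumbar samples (SE 0.12, 6.52e-06). Its lumbar SMA samples ran from 29.3 to 41.0 RPKM on day 2, 27.6 to 43.3 on day 5 and 14.7 to 22.7 on day 10. Rpl13 fell by 1.4 in lumbar SMA samples (SE 0.16, limma adjusted p = 2.58e-07), from 20.0 to 25.8 RPKM on day 2 to 5.75 to 10.4 RPKM on day 10. Rpl32 fell by 0.53 in ocular, 0.60 in hypoglossal and 0.75 in lumbar samples. The 2 rises were Rps27l in ocular samples, by 0.66 (limma adjusted p = 0.0206), and Rps28 in facial samples, by 1.21 (0.0468), and the latter was lost when any 1 of 20 mice was left out.

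**Figure D4:**
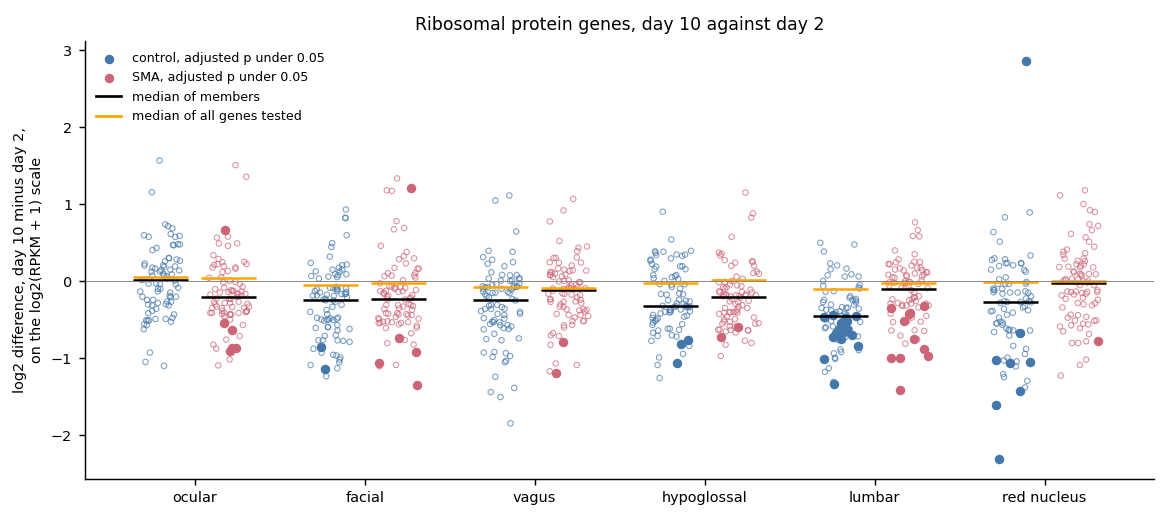
Log2 change from day 2 to day 10 of each member (vertical axis) in the 6 populations (horizontal axis), for control and SMA mice, with filled points for an adjusted p under 0.05, black lines for the members' median and orange lines for the median of all genes tested. Lumbar controls have the lowest member median, at -0.448, and ocular controls the highest, at 0.018.

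Other quantities moved with age in the same samples. Oligodendrocyte markers, which mark myelinating cells, were higher on day 10 in 33 of 59 tests in controls (55.9%) and 29 of 59 in SMA mice (49.2%). The shares of all tests were 3.38% and 3.77%. Their summed median in controls went from 63.5 to 952.1 RPKM in lumbar, 34.3 to 481.8 in red nucleus, 40.1 to 526.6 in ocular, 54.3 to 289.9 in facial and 97.6 to 651.1 RPKM in hypoglossal samples, but from 106.4 to 73.1 RPKM in the vagus. The astrocyte sum of controls went from 1451 to 1780 RPKM on day 2 to 1058 to 1263 RPKM on day 10 in lumbar samples, and from 626 to 986 to 1472 to 1853 RPKM in the red nucleus, without overlap in either. The part of these markers in the ribosomal protein changes was not tested. Library numbers also differed by day. With both genotypes together they ran from 86 to 211 on day 2 and from 190 to 260 on day 10. On day 5 they started at 33 and ended within the day-2 range. Within each genotype, every day-10 number lay above every day-2 number. Age and library number thus changed together in both contrasts by age, and the part of each was not tested. What the number stands for is not given in the sources used here. A further fit kept only the day-2 control libraries of the highest numbers, which left 1 or 2 samples a population. Their numbers overlap those of day-10 SMA libraries but lie below those of all day-10 controls. The comparison therefore cannot separate age from library number. In lumbar samples, with 2 day-2 controls left, 9 members were lower and 74 of 84 negative. In that comparison a lone sample is assumed to vary like the other groups.

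Lists of genes that work with the ribosome were counted in the same contrast. Over all tests of it, 3.67% were lower and 3.38% higher in controls, and 3.63% and 3.77% in SMA mice. Of other TOP mRNAs, 9 of 120 tests were lower (7.5%) and 2 higher in controls and 10 lower (8.33%) and 1 higher in SMA mice. In lumbar controls Eef1b2, a translation elongation factor subunit, fell by 0.71, Npm1, a nucleolar chaperone, by 0.75 and Pabpc1, the polyA-binding protein, by 1.31. Pabpc1 also fell by 1.44 in vagus controls. Gnb2l1, which encodes the 40S scaffold RACK1 and lies outside the symbol rule, fell by 0.54 in lumbar and 0.59 in red nucleus controls. Ribosome biogenesis factors had 4 higher and 4 lower of 342 tests in controls (1.17% each), below the shares of all tests. In controls, mTOR and TOP control genes had 0 higher and 7 lower of 84 (8.33%), mostly Mycn and Myc, the transcription factors that drive ribosome production.

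The populations themselves differed in a subset of members. Each population of control mice was set against the mean of the other 5 over all days, with the mouse as a block, since populations came from the same animals. Ocular motor neurons had 24 of 87 members lower (27.6%) and none higher, against 9.73% of all genes lower and 7.51% higher. Vagus motor neurons had 12 higher and 2 lower, against 14.9% and 11.1%, facial 6 higher and none lower against 5.85% and 3.57%, and hypoglossal 1 higher and none lower against 7.11% and 3.7%. Lumbar motor neurons had 5 higher and 4 lower against 8.53% and 7.96%, and red nucleus neurons 2 higher and 9 lower against 8.69% and 11.9%. The ocular share exceeded its background by the most. In all, 26 tests were higher, of 23 members, and 39 lower, of 34 members.

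In ocular samples 10 of 31 small subunit, 12 of 43 large subunit and 2 of 3 stalk members were lower, and 19 of these 24 had at least 50% unique windows. The median of all members was -0.189 against -0.041 for all genes, and 78 of 87 were negative. Those furthest below were Rps20 at -1.21 (SE 0.39, limma adjusted p = 0.0171), Rps2 at -1.04 (0.00405) and Rps15a at -0.85 (0.00691), all 40S proteins. Rps26 was lower by a smaller amount, 0.31 on the log2 scale (limma adjusted p = 2.7e-05). Rps20 medians were 15.9 RPKM in ocular controls (9.77 to 140.4), 28.6 in red nucleus, 74.5 in hypoglossal, 86.3 in facial, 91.7 in lumbar and 104.9 RPKM in vagus controls, with wide overlap. Rps20 levels lay in 2 separate ranges, so these medians move with how many samples are in the lower range. With both genotypes together, 16 of 28 ocular samples were under 30 RPKM. Elsewhere the share went from 7 of 27 hypoglossal to 11 of 27 facial samples. Scaling mattered here: with upper-quartile scaling 9 ocular members were lower and with quantile scaling 16, and leaving out control mouse 244 left 12, mouse 29 left 15.

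Rps4y2 passed in 4 populations, in both directions, as did Rpl14. Its control means were 56.9 ± 19.6 RPKM in the vagus (SD, n = 11), 47.5 ± 24.2 in facial (n = 13), 35.7 ± 10.5 in ocular (n = 12), 32.6 ± 13.3 in hypoglossal (n = 12), 17.8 ± 9.16 in lumbar (n = 13) and 17 ± 8.88 RPKM in red nucleus samples (n = 11). It was higher in vagus by 1.0 (limma adjusted p = 2.88e-05) and facial samples by 0.64 (0.0119), and lower in lumbar by 0.92 (0.000155) and red nucleus samples by 1.10 (7.93e-06). Neighbours in this order, such as lumbar and red nucleus, or ocular and hypoglossal, differed by less than their SDs. Rps4x, its canonical partner, ran only from 11.9 to 17.4 RPKM over the same populations.

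Rps27l had control means of 355 RPKM in lumbar, 351 in facial, 346 in hypoglossal, 313 in vagus, 275 in ocular and 220 RPKM in red nucleus samples. It was higher in lumbar by 0.26 and facial by 0.24, and lower in red nucleus samples by 0.61 on the log2 scale (limma adjusted p = 1.07e-08). In facial samples Rpl12 was higher by 0.79 (0.0120) and Rpl27 by 0.78 (0.00011), at 24.5 RPKM against 11.5 to 15.7 RPKM elsewhere, both 60S proteins. Vagus samples were higher in Rps15a by 0.74 and Rps9 by 0.49, and lower in Rpl23a by 0.88 and Rps16 by 0.49. Hypoglossal samples were higher in Rpl24 alone, by 0.54. Lumbar samples were higher in Rps24 by 0.35 and Rpl37a by 0.33, and lower in Rpl10 by 0.61 (lost when any 1 of 15 mice was left out) and Rpl24 by 0.55. Red nucleus samples were higher in Rpl21 by 0.68 and Rpl15 by 0.27, and lower in Rpl37a by 0.58 and Rps29 by 0.42.

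The split of these counts depended on the scaling. With upper-quartile scaling there were 15 higher and 1 lower in lumbar, 0 higher and 19 lower in red nucleus, 3 and 3 in vagus, 5 and 0 in facial and 1 and 0 in hypoglossal samples. With quantile scaling there were 9 higher and 5 lower in vagus, 6 and 5 in lumbar and 3 and 8 in red nucleus samples. Leaving out control mouse 34 left 2 facial members higher, mouse 29 left 8 in the vagus and mouse 28 left 3 in lumbar samples.

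**Figure D5:**
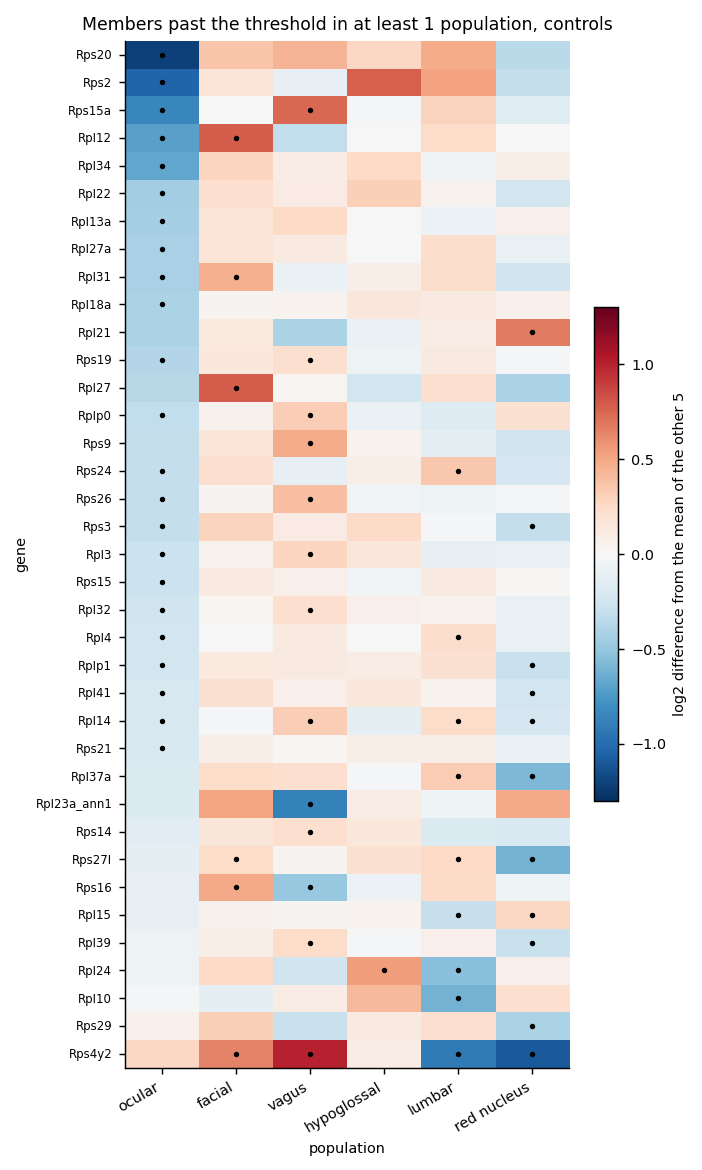
Log2 difference of each population of control mice from the mean of the other 5 (colour) for 37 members that passed in at least 1 population, with 1 more left out (one axis) in the 6 populations (other axis), with dots for an adjusted p under 0.05. The ocular column holds 23 dots for the members drawn, all lower, and Rps4y2 runs from 1.0 in the vagus to -1.10 in the red nucleus.

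Members did not move as 1 block between mice. For the 34 canonical genes with at least 50% unique windows, Pearson correlations of log2 deviations from the group mean over the 160 samples had a median of 0.152 over 561 pairs of genes, from -0.541 to 0.804. Samples of a mouse share its animal, and all genes of a sample share its depth, so these correlations are a description.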

How the data were processed

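Levels are RPKM values (reads per kilobase of gene, scaled to library depth) that the authors deposited as 1 table. STAR 2.4.1c and the builds mm10 and hg19 are named in the submitters' processing notes, without their roles. The read counter, annotation and handling of strand and multiple matches are not given in the sources used here. Per the labels' descriptions, 5 lumbar control libraries of day 5 merged new with earlier reads. Where a mouse had several libraries of a population, their RPKM were averaged, and values were taken as log2(RPKM + 1). By their labels, some ocular libraries of day-5 controls and of both genotypes on day 10 held only the oculomotor or only the trochlear nucleus. All other ocular libraries, with those of day 2, name both nuclei. Control mouse 29 of day 5 and SMA mouse 258 of day 10 had the oculomotor nucleus alone. The part of the nucleus in ocular values was not tested. Genes at 1 RPKM or more in as many samples as the smallest group were tested with limma 3.58.1 (R 4.3.3, eBayes with trend), two-sided, with Benjamini-Hochberg adjustment over all genes of a contrast (15890 to 17270 per population, 22270 over all samples). Of the 91 members, 83 entered all 6 population fits, 3 some and 5 none; 87 entered the fit over all samples.

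Genotypes and days were compared within a population, between different mice. Populations were compared with the mouse as a block, since the labels give the same animal. The median correlation of deviations was 0.0328 between samples of the same mouse (339 pairs) and -0.00642 between other mice (1480 pairs). Depth was estimated from low values, 68.7 to 81.6% of which were whole reads within 1%. RPKM keep no counting error, so precision rests on the spread between mice.

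The members and gene lists were chosen with earlier results of these data known. Genes named are members past the threshold in an SMA comparison, paralog pairs, up to 5 per direction for age and up to 3 per direction and population, the 5 highest and lowest means and members of known other roles; further names were chosen after their values were seen, and values of some members are not reported here. Alternatives were a pseudocount of 0.1, no filter, quantile and upper-quartile scaling, each library as a sample, leaving out the 2 shallowest libraries, a fit of the compared groups only, no block, and leaving out each mouse. Unique windows, gene positions and coding sequences come from GENCODE M21 on GRCm38, with 90 of 91 members matched, and start windows from RefSeq.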

Additional observations from a re-analysis of the deposited data

Results flagged for a closer look

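In groups of 4 to 10 samples, 6 sets of values (4.69% of those examined) had 1 sample far from the others, and chance marks about 1 in 20 groups. Mouse 31, an SMA mouse of day 5, had a summed ribosomal protein share of 1.13% in its hypoglossal sample, where the other SMA samples had 0.782 to 0.8294%, and 205.4 RPKM of Rps21 in its ocular sample against 105.2 to 122.97 RPKM. Rps27l on day 10 gave the other 4. Control mouse 247 had 446 RPKM in its ocular sample against 284 to 297 RPKM, and 519 RPKM in its vagus sample against 242.1 to 287 RPKM. SMA mouse 250 had 311 RPKM in its ocular sample against 539 to 608 RPKM, and SMA mouse 258 had 206 RPKM in its vagus sample against 343 to 382 RPKM. In the ocular groups each lone sample lay toward the values of the other genotype. In the vagus, mouse 247 lay above every SMA sample and mouse 258 below every control, so neither lay among the other genotype.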

How the results depend on the processing

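No member difference that passed as reported changed direction under any alternative. Direction was not compared for differences that did not pass, nor for genes outside the symbol rule. Medians near 0 did: that of the members with age in ocular controls went from 0.018 to -0.010 with quantile scaling, and that in red nucleus SMA samples from -0.016 to 0.158 with upper-quartile scaling. Of the 4 member tests higher in SMA on day 10, 2 passed without the filter, 1 with quantile scaling, 1 with upper-quartile scaling and 2 when a fit held no other groups than those compared. The single higher test of controls with age became 0 without the filter, 3 with upper-quartile scaling, 2 with each library as its own sample and 2 with day-2 controls of the highest library numbers only. The 29 lower tests became 19 in fits without other groups and 19 with those day-2 controls. The 2 higher tests of SMA mice with age became 1 without the filter and 1 with upper-quartile scaling. For the SMA difference of a population against the others, 0 higher tests became 1 with a pseudocount of 0.1, 1 without the filter and 2 with upper-quartile scaling. The cause was not tested.

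Without the replicate block of mouse, population comparisons gave 21 higher and 39 lower tests, 56 of them shared with the 65 reported, and the SMA difference against the others gave 0 and 0. Leaving out each mouse in turn gave 0 to 1 higher and 0 to 0 lower SMA tests on day 2, 0 to 0 and 0 to 0 on day 5, and 1 to 4 and 0 to 0 on day 10. With age it gave 0 to 2 higher and 20 to 32 lower in controls and 0 to 4 and 14 to 27 in SMA mice. Population tests ran from 18 to 28 higher and 25 to 40 lower, those of the change with age from 0 to 0 in both directions, and those of the SMA difference against the others from 0 to 3 higher (without control mouse 253) and 0 to 0 lower. At the median depth, 1 RPKM of a 500-base gene is 2.95 reads, so low members are imprecise.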

Other observations

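Rps20, a 40S protein at chr4:3831334-3835665 on the minus strand, had 2 separate ranges of level. Of 160 samples, 61 were under 30 RPKM and 95 over 60 RPKM, and the 4 between were ocular samples. Most of the 8 samples averaged over more than 1 library were ocular too, and the part of averaging in these values was not tested. Samples under 30 RPKM were 16 of 28 ocular, 11 of 27 facial, 8 of 25 vagus, 7 of 27 hypoglossal, 10 of 30 lumbar and 9 of 23 red nucleus samples. Of 31 mice with 2 or more samples, 29 had samples in both ranges, so the range went with the sample and not with the mouse. By genotype and day, 9 of 24 control and 11 of 36 SMA samples of day 2, 8 of 24 and 10 of 24 of day 5, and 14 of 24 and 9 of 28 of day 10 were under 30 RPKM. No comparison was made between samples of the 2 ranges.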
